A study of Mus musculus with 21 samples.

Results

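The endoplasmic reticulum (ER) is where secreted and membrane proteins are folded, and 40 genes of its folding machinery and of the unfolded protein response were followed here in mouse liver, out of 19716 genes tested. The members were listed by name, not by their values, and each was read from the brightest of its probes. The array files named 39 of them directly. Vimp, which RefSeq now lists as Selenos, was found through its transcript record. All 40 members were above background on all 21 arrays.

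The animals were C57BL/6J mice, an inbred strain, all male and adult, none with a genetic change given in the labels. After 3 weeks on a normal-fat diet they ate a high-fat diet for 12 weeks, either plain (HF, 11 livers) or with 0.33% by weight of the plant flavonoid quercetin (HF-Q, 10 livers), and fasted 2 to 4 h before tissue was taken. Both groups ate the high-fat diet, so a liver of a mouse kept on normal fat was not part of the comparison. Each array set RNA of 1 liver (red dye, Cy5) against a pool of all livers (green dye, Cy3). A value below is therefore a log2 ratio of that liver to the pool, normalised within its array, and a difference is HF-Q minus HF on the same scale.

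Hepatocytes secrete most plasma proteins and depend on this machinery. Proteins enter the reticulum through the Sec61 channel, lose their signal peptide, and are folded by chaperones and by isomerases that form disulfide bonds, while proteins that stay misfolded are pulled back to the cytosol and degraded. When misfolded proteins accumulate, the sensors IRE1 (Ern1), PERK (Eif2ak3) and ATF6 start the unfolded protein response, in which spliced XBP1 and cleaved ATF6 activate many of the genes described here.

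Both transcription factors act through the ER stress response element (ERSE), defined from chaperone promoters such as that of Hspa5 as CCAAT, 9 bases of any kind, then CCACG. This motif, searched on both strands from 250 bases before to 50 after each start in RefSeq promoters (GRCm38.p6), was found in 39 of 32851 promoters (0.119%). Of the 33 members with a promoter entry, 10 held it (30.3%): Hspa5, Hsp90b1, Calr, Canx, Dnajc3, Creld2, Pdia6, Ero1lb, Syvn1 and Derl3. A related element, ERSE-II (ATTGG, 1 base of any kind, then CCACG, both strands), was found in 12 promoters (0.0365%), among them those of Herpud1 and Dnajb11, and TGACGTGG, which XBP1 binds, in 222 promoters (0.676%) and in 0 of the 33. No entry was found for Hyou1, Manf, Derl1, Sec61a1, Ssr2, Sec11c and Atf6. The stretches below carry the motif in capitals with 15 bases on each side, written 5′ to 3′ on the strand of the gene. They were picked because the first 4 belong to members that varied together across livers or differed most, and the last 2 to members that were not higher in HF-Q.
Hspa5: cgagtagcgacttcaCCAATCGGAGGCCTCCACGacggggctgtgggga
Creld2: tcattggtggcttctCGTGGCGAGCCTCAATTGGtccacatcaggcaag
Syvn1: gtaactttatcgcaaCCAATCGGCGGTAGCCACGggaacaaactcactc
Derl3: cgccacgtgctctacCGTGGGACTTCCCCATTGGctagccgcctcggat
Canx: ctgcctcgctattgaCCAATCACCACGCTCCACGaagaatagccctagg
Herpud1: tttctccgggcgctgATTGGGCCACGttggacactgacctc

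These windows lie at chr2:34772010-34772058 (Hspa5, plus strand), chr15:88819505-88819553 (Creld2, plus), chr19:6046517-6046565 (Syvn1, plus), chr10:75893227-75893275 (Derl3, plus), chr11:50325785-50325833 (Canx, minus) and chr8:94386362-94386402 (Herpud1, plus), all upstream of the start. In Creld2 and Derl3 the element is on the opposite strand, so it reads as CGTGG, 9 bases, ATTGG. The median difference between HF-Q and HF was 0.14 over the 10 members with an ERSE and 0.081 over the 23 without. An unadjusted p under 0.05 was met by 4 of the 10 and 6 of the 23, against 5.95% of all genes tested. Whether members with and without the element differ was not tested. A match describes letters and does not show that a factor bound there.

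The arrays lay on 3 slides, each holding both groups: 3 HF and 4 HF-Q arrays on slide 1, 4 and 2 on slide 2, and 4 and 4 on slide 3. All 8 hepatocyte markers were above background on every array. Of 17 pancreatic acinar markers, 10 were tested, and their mean log2 ratio was 1.63 in HF replicate 5 and 2.20 in HF replicate 11, against at most -0.30 in the other HF livers and -0.78 to -0.12 in HF-Q. Of 8 plasma and B cell markers on the array, 3 were tested, and Igkc and Tnfrsf17 were above background on 0 arrays. Kupffer cell markers (8 tested) averaged -0.60 to 0.71 in HF and -0.59 to 0.0035 in HF-Q. In whole liver, fewer cells of a type and less RNA per cell cannot be told apart.

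Across the 40 members, 31 had a higher mean in HF-Q than in HF, against 46.9% of all genes tested. The median difference was 0.084, where the median of all genes was -0.0044. No member passed the threshold of 0.05 after Benjamini-Hochberg adjustment in limma, nor did any gene on the array (0%), the lowest adjusted p over all genes being 0.381. At an unadjusted p under 0.05 there were 12 members, all 12 higher in HF-Q, where 5.95% of all genes met that criterion, 3.01% higher and 2.94% lower. The groups overlapped in each of the 40, as they did in all but 0.0051% of the genes tested.

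**Figure D1:**
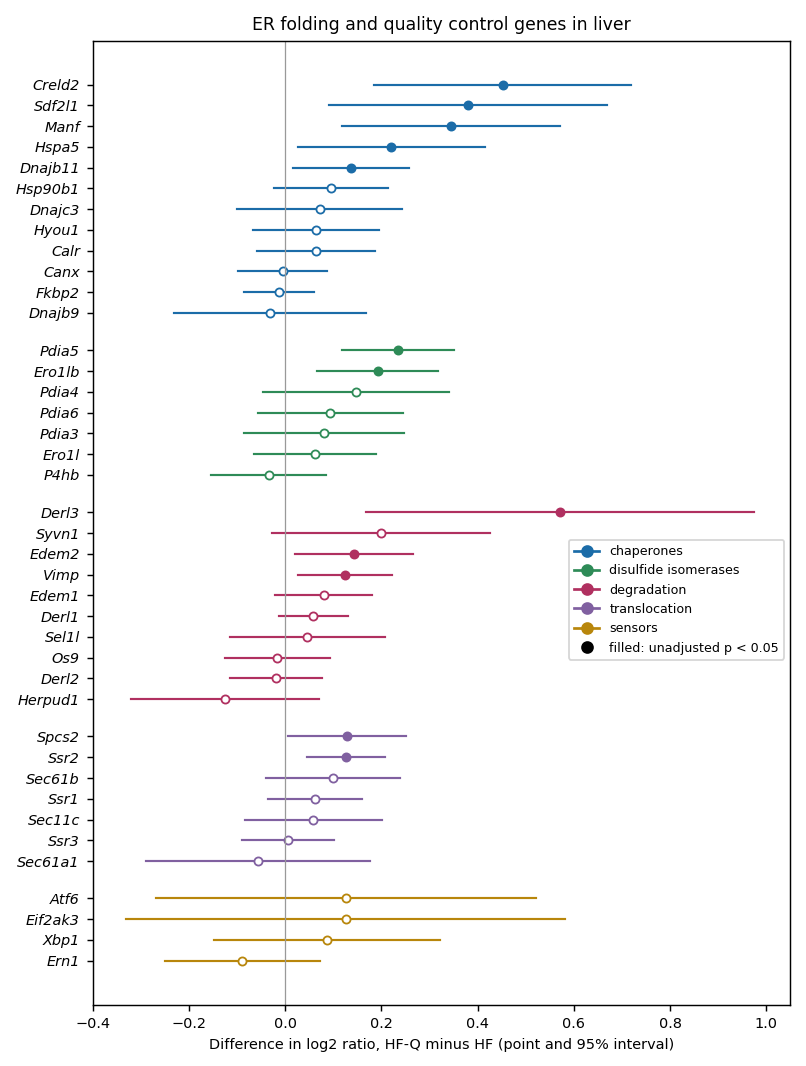
Difference in log2 ratio between HF-Q and HF for the 40 members, grouped by role, with 95% intervals from limma that are not adjusted for the number of genes; filled points had an unadjusted p under 0.05. The widest shifts to the right are Derl3 (0.57), Creld2 (0.45), Sdf2l1 (0.38) and Manf (0.34), and the 4 sensors all span 0.

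Among the 12 chaperones and their cofactors, 9 were higher in HF-Q, 5 of them with an unadjusted p under 0.05, and the median difference was 0.084. Creld2, a secreted disulfide-reducing protein of the ER, had the largest difference in this group. Its log2 ratio was -0.51 at the lowest, -0.27 at the median and 0.054 at the highest in HF, and -0.59, 0.099 and 0.87 in HF-Q. HF-Q livers thus lay above the HF median in 9 of 10 animals and above every HF liver in 7, while HF-Q replicate 4 lay below every HF liver. The difference was 0.45 ± 0.13 (SE, n = 10 and 11), or 1.37-fold (limma, unadjusted p = 0.00189, adjusted p = 0.684).

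Manf, a secreted protein retained in the ER that supports survival of stressed cells, had the same arrangement. It ran from -0.36 through -0.19 to 0.063 in the 10 HF livers that gave a value, and from -0.45 through 0.11 to 0.69 in HF-Q. Again 9 of 10 HF-Q livers were above the HF median and replicate 4 was the lowest of all, with a difference of 0.34 ± 0.11 (SE; limma unadjusted p = 0.00469, adjusted p = 0.736). Its spot on the array of HF replicate 1 had an outlier mark and was left out.

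Sdf2l1, a partner of the ER chaperone Hspa5 that keeps misfolded proteins from aggregating, was spread widely within both groups. Its HF values were -0.63 at the lowest, -0.053 at the median and 0.31 at the highest, and its HF-Q values -0.54, 0.43 and 0.74. The difference of 0.38 ± 0.14 (SE) had an unadjusted p of 0.0119 and an adjusted p of 0.769 in limma, with 6 of 10 HF-Q livers above every HF liver.

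Hspa5 (BiP), the main Hsp70 chaperone of the ER and the protein that holds the 3 sensors inactive, was measured by a probe at chr2:34631913-34631972 of the array's build (NCBI37). It stood at -0.21, 0.061 and 0.36 (lowest, median, highest) in HF and at -0.21, 0.29 and 0.76 in HF-Q. The upper end of HF-Q came from replicates 1 and 5, at 0.76 and 0.69, the only HF-Q livers on slide 2. The difference was 0.22 ± 0.094 (SE), or 1.17-fold (limma, unadjusted p = 0.0273, adjusted p = 0.807). Without these 2 livers it was 0.12.

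Dnajb11, an Hsp40 cofactor of Hspa5, ranged from -0.26 through -0.13 to 0.18 in HF and from -0.29 through 0.047 to 0.24 in HF-Q. The groups overlapped over most of their range and differed by 0.14 ± 0.058 (SE; limma unadjusted p = 0.0274, adjusted p = 0.807), while a second, dimmer probe of the gene gave -0.070 ± 0.23. Hsp90b1 (GRP94), the Hsp90 chaperone of the ER, ranged from -0.24 through -0.071 to 0.23 in HF and from -0.20 through 0.082 to 0.24 in HF-Q. Its difference of 0.095 ± 0.057 (SE) had an unadjusted p of 0.108 in limma.

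The other chaperones differed less. Hyou1, a large Hsp70-like chaperone, Dnajc3, a cofactor that also inhibits PERK, and the lectin chaperone Calr gave 0.064, 0.072 and 0.064. Calr's membrane-bound relative Canx, the cofactor Dnajb9 and the prolyl isomerase Fkbp2 gave -0.0052, -0.031 and -0.013, and a second probe of Dnajb9 gave 0.096. All 6 had 95% intervals that spanned 0, from -0.10 to 0.24 for Dnajc3 and from -0.23 to 0.17 for Dnajb9.

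**Figure D2:**
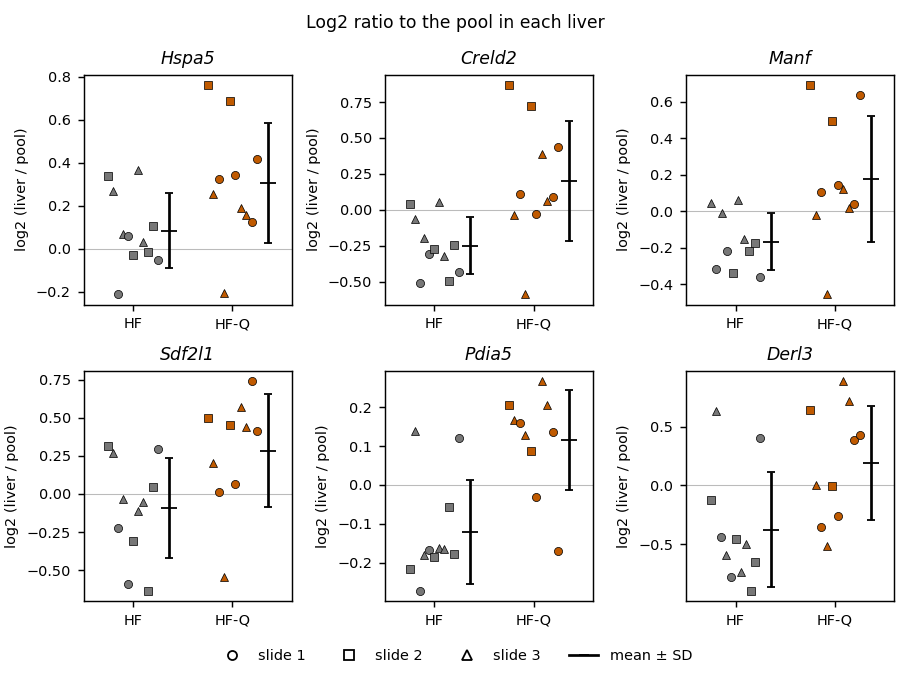
Log2 ratio of each liver to the pool for 6 members, by diet, with the slide as the symbol and mean ± SD beside the points (HF 11 livers, 10 for Manf; HF-Q 10 livers). In Hspa5 and Creld2 the 2 squares of HF-Q, replicates 1 and 5 on slide 2, are the highest points, and the lowest triangle of HF-Q is replicate 4 (-0.21 and -0.59).

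Of the 7 enzymes of disulfide formation, 6 were higher in HF-Q and 2 had an unadjusted p under 0.05, with a median difference of 0.094. Pdia5, a protein disulfide isomerase that also acts on ATF6, had the lowest p of all members. It stood at -0.27, -0.17 and 0.14 (lowest, median, highest) in HF and at -0.17, 0.15 and 0.27 in HF-Q. All but 2 HF livers were below 0, and 8 of the 10 HF-Q livers were above it. The difference was 0.24 ± 0.056 (SE), or 1.18-fold, with 9 of 10 HF-Q livers above the HF median (limma, unadjusted p = 0.000344, adjusted p = 0.515).

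Ero1lb, an oxidase that recharges the isomerases, ranged from -0.12 through -0.0034 to 0.15 in HF and from -0.037 through 0.19 to 0.51 in HF-Q. In 6 HF-Q livers it was above every HF liver, and the difference was 0.19 ± 0.060 (SE; limma unadjusted p = 0.00414, adjusted p = 0.736). Without HF-Q replicates 1 and 5 it was 0.12. Its relative Ero1l, which had the dimmest signal of the 40 (median Cy5 intensity 135), differed by 0.062. The isomerases Pdia4, Pdia6 and Pdia3 gave 0.15, 0.094 and 0.081, and P4hb, the most studied of the family, gave -0.034, each with a 95% interval across 0. Pdia6 was measured in 7 of the 10 HF-Q livers, and its second probe gave 0.13.

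Of the 10 members of ER-associated degradation, 7 were higher in HF-Q and 3 had an unadjusted p under 0.05. Derl3, a Derlin of the channel that returns misfolded proteins to the cytosol, had the largest difference of the 40. Its log2 ratio was -0.90, -0.50 and 0.64 (lowest, median, highest) in HF and -0.51, 0.20 and 0.89 in HF-Q. Of the HF livers, 9 were below -0.10, and only replicates 2 (0.64) and 11 (0.41) were above 0. The difference was 0.57 ± 0.19 (SE), or 1.48-fold (limma, unadjusted p = 0.00757, adjusted p = 0.746). The highest HF-Q liver was replicate 7, and on its array 4 of 13 spots around that of Derl3 were off by over 0.5. Without this array the difference was 0.49.

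Derl3 is also known from secretory cells such as those of the pancreas. The 2 HF livers with high acinar transcripts lay on opposite sides, replicate 5 at -0.78 and replicate 11 at 0.41, and without both the difference was 0.61. Its relatives Derl1 and Derl2 were 0.058 and -0.019, with other probes at 0.011 for Derl1 and at 0.0049 and 0.0012 for Derl2.

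Edem2, a mannosidase that marks misfolded glycoproteins, ranged from -0.14 through -0.086 to 0.17 in HF and from -0.14 through 0.10 to 0.32 in HF-Q. In 9 of 10 HF-Q livers it was above the HF median, with a difference of 0.14 ± 0.060 (SE; limma unadjusted p = 0.0248, adjusted p = 0.796). Vimp, which links the Derlins to the p97 motor, ranged from -0.20 through -0.056 to 0.17 in HF and from -0.0038 through 0.052 to 0.32 in HF-Q. All 10 HF-Q livers were above the HF median, and the difference was 0.12 ± 0.047 (SE; limma unadjusted p = 0.0146, adjusted p = 0.770). Without HF-Q replicates 1 and 5 it was 0.082.

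Syvn1 (HRD1), the ubiquitin ligase of this pathway, and Sel1l, its adaptor, gave 0.20 ± 0.11 and 0.046 ± 0.078 (SE). Neither had an unadjusted p under 0.05, and both depended on HF-Q replicates 1 and 5, without which they were 0.059 and -0.037. Edem1, another mannosidase-like protein, gave 0.081, and the lectin Os9 gave -0.016. Herpud1, a scaffold of the ligase complex and a classical target of the response, had the lowest difference of all members at -0.12 ± 0.095 (SE), and was -0.039 without HF replicates 5 and 11. Its highest HF liver was replicate 11, at 0.49.

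Of the 7 members of translocation and signal peptide cleavage, 6 were higher in HF-Q and 2 had an unadjusted p under 0.05. Ssr2, a subunit of the translocon-associated complex, ran from -0.16 through -0.0073 to 0.087 in HF and from -0.068 through 0.11 to 0.27 in HF-Q. In 7 of the 10 HF-Q livers it was above every HF liver. Its difference was small but tight, 0.13 ± 0.040 (SE; limma unadjusted p = 0.00397, adjusted p = 0.736).

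Spcs2, a subunit of the signal peptidase, ran from -0.34 through -0.23 to 0.19 in HF and from -0.33 through -0.072 to 0.12 in HF-Q. No HF-Q liver was above the highest HF liver, replicate 1. The difference was 0.13 ± 0.059 (SE; limma unadjusted p = 0.0413, adjusted p = 0.821), and a second probe of Spcs2 gave -0.056 ± 0.067.

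Sec61b, a channel subunit, gave 0.10, and its other 2 probes 0.14 and 0.099. The subunits Ssr1 and Ssr3 and the peptidase subunit Sec11c gave 0.062, 0.0058 and 0.058. The other probes of Ssr1 gave 0.14 and 0.0046, and that of Ssr3 gave -0.022. Sec61a1, which forms the pore, gave -0.056, but 1 spot set that value: HF-Q replicate 7 read -1.21, and no other HF-Q liver was below -0.28. In that spot both channels were bright, with Cy3 at 83082 against at most 14573 elsewhere, and 5 of 13 neighbouring spots were also off by over 0.5. Without this array Sec61a1 differed by 0.062.

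Of the 4 sensors and transcription factors, 3 were higher in HF-Q and 0 had an unadjusted p under 0.05. Xbp1, measured here as total transcript with no distinction of its spliced form, ranged from -0.51 through 0.028 to 0.34 in HF and from -0.26 through -0.15 to 0.49 in HF-Q. Its median was lower in HF-Q while its mean was higher by 0.087 ± 0.11 (SE), since 5 HF livers stood at -0.30 or below and the other 6 at 0.028 or above. Without HF-Q replicate 1 that difference was 0.031, and without HF replicate 2 it was 0.13. Ern1 ranged from -0.23 through 0.097 to 0.32 in HF and from -0.45 through -0.033 to 0.28 in HF-Q, a difference of -0.089 ± 0.078 (SE) with an unadjusted p of 0.266 in limma. Without HF-Q replicate 10 it was -0.042, and without HF-Q replicate 5 it was -0.12.

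Atf6 and Eif2ak3 were each decided by HF replicate 8. Atf6 ranged from -1.97 through 0.14 to 0.35 in HF and from -0.24 through 0.033 to 0.34 in HF-Q. Eif2ak3 ranged from -2.27 through 0.20 to 0.35 in HF and from -0.12 through 0.077 to 0.33 in HF-Q. In both genes the HF minimum was that 1 liver and every other HF liver was above -0.10.

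The reference channel was raised in both spots of HF replicate 8. Cy3 was 1410 for Atf6 against 390 to 533 on the other arrays, and 1115 for Eif2ak3 against 427 to 582. Cy5, from the liver, was below all other arrays, at 463 against 478 to 860 for Atf6 and 290 against 556.5 to 952 for Eif2ak3. On that array 6 of 14 and 6 of 13 spots around them were off by over 0.5, where the median over 798 member spots was 0. The differences of 0.13 ± 0.19 and 0.13 ± 0.22 (SE) turned to -0.064 and -0.10 without HF replicate 8. No direction can be given for either gene.

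**Figure D3:**
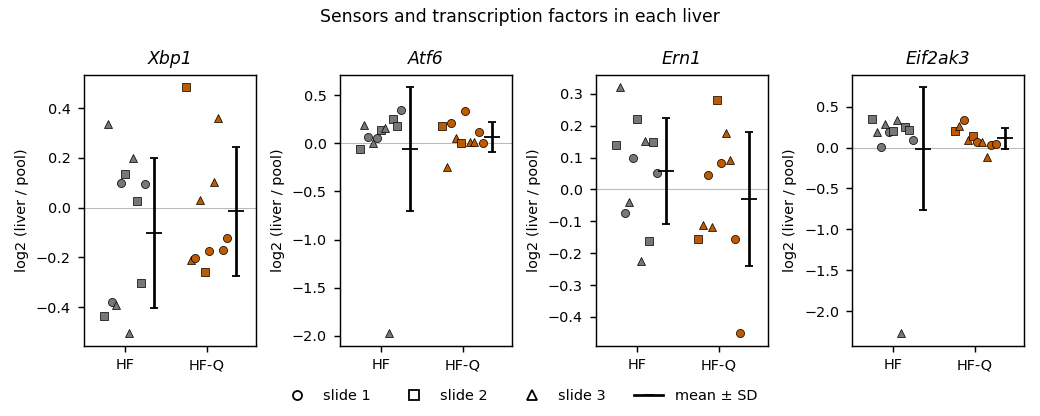
Log2 ratio of each liver to the pool for the 4 sensors and transcription factors, by diet, with the slide as the symbol and mean ± SD beside the points. The lone points at -1.97 (Atf6) and -2.27 (Eif2ak3) are HF replicate 8, and HF livers form a lower set of 5 and an upper set of 6 in Xbp1.

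The slides did not give the same picture. Within slide 1, 32 members were higher in HF-Q, with a median of 0.11, and 8 were higher at an unadjusted p under 0.05 (3.37% of all genes on that slide), while Herpud1 was lower at that threshold (3.51% of all genes). Within slide 2, 34 were higher, with a median of 0.17, and 14 met the threshold in that direction (1.76% of all genes) and 0 in the other (1.86%). Within slide 3, 19 of 40 were higher, with a median of -0.0050, and 1 met it in that direction (1.99% of all genes) and 0 in the other (2.81%).

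Hspa5 gave 0.37, 0.63 and -0.084 on slides 1, 2 and 3, and Manf gave 0.53, 0.83 and -0.070. Pdia5 gave 0.13, 0.31 and 0.28, and Derl3 gave 0.32, 0.85 and 0.58, positive on all 3. Creld2, Sdf2l1, Ero1lb, Vimp, Edem2, Ssr2 and Spcs2 were also positive on all 3, while Dnajb11 gave -0.0097 on slide 3. Whether the slides differ was not tested.

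Single livers moved these values. HF-Q replicate 4, on slide 3, was the lowest HF-Q liver in 18 of 40 members, and the median over the members was -0.14 there against 0.022 to 0.14 in the other HF-Q livers. Without it, 30 of 40 members were higher on slide 3, against 48.9% of all genes, with a median of 0.057. At an unadjusted p under 0.05, 4 were higher (2.07% of all genes). HF-Q replicates 1 and 5, the only HF-Q livers on slide 2, had the highest medians over the members, 0.14 and 0.12, but in HF the medians of replicates 2 and 1 also reached 0.099 and 0.087. Without HF-Q replicates 1 and 5 the median difference over all 40 was 0.068 and 28 were higher, against 48.0% of all genes. Of these, 8 had an unadjusted p under 0.05 (2.63% of all genes). Without HF replicates 5 and 11, the livers with high acinar transcripts, the median difference was 0.089. Then 31 were higher, against 47.9% of all genes, 9 of them at that threshold (2.53% of all genes).

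**Figure D4:**
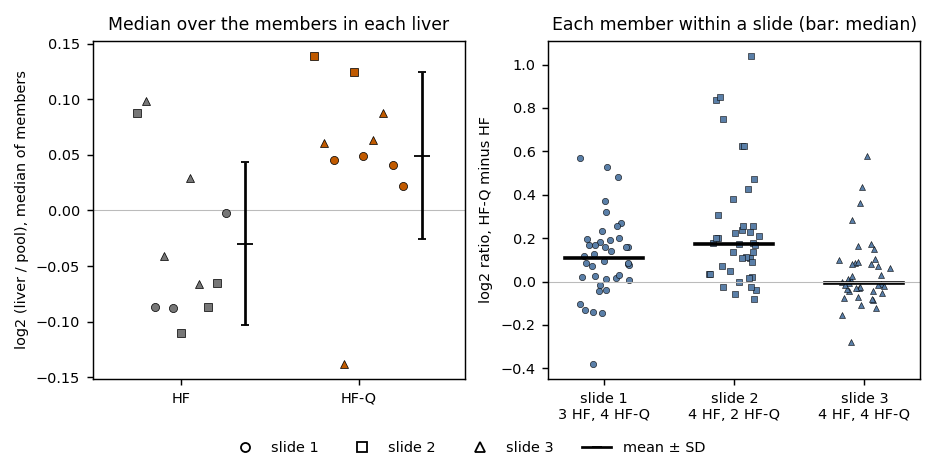
Left, the median log2 ratio over the members in each liver, with mean ± SD over livers; right, the difference of each member between HF-Q and HF within each slide, with a bar at the median (0.11, 0.17 and -0.0050). The lowest HF-Q point on the left, at -0.14, is replicate 4.

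The HF arm of slide 1 was replicates 3, 5 and 11, so 2 of its 3 livers were those with high acinar transcripts. They also held the highest HF values of Herpud1, 0.34 and 0.49, and the part of these livers in the values of slide 1 was not tested.

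The normalisation moved the count of higher members. When each array was only centred on its median instead of being corrected for dye by intensity (loess), 38 of 40 were higher, all but Herpud1 and Ern1, and 65.6% of all genes were higher too. The median difference was then 0.13. At an unadjusted p under 0.05, 7 members were higher, not 12, where 0.852% of all genes were, not 3.01%. In the deposited log2 values 36 of 40 were higher, against 52.2% of all genes.

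Correlation with Hspa5 across livers was taken after the mean of each diet group was removed. Pearson's r was positive for 34 of the 39 other members, with a median of 0.41, against 49.4% of all genes and a median of -0.0041. It was over 0.5, a limit set after the values were seen, in 12 members and in 1.64% of all genes. Of the 39, 11 had an adjusted permutation p under 0.05 (two-sided, 100000 resamples within groups, adjusted over the 39). All 11 were positive: Creld2, Manf, Syvn1, Sel1l, Vimp, Dnajb11, Ero1lb, Ssr1, Pdia3, Spcs2 and Sec61b. Pdia3 was highest in HF replicate 1, at 0.41, on a spot where 9 of 12 neighbouring spots were off by over 0.5. The part of that spot in its r was not tested. All values of 1 liver share its array and normalisation, whose part in these correlations was not tested. With arrays centred on their median r was positive for all 39, with a median of 0.74, but also for 93.4% of all genes, with a median of 0.53, and it was over 0.5 in 31 members and in 55% of all genes.

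Creld2 followed Hspa5 most closely, at r = 0.91 and Spearman's rho = 0.79 (permutation p = 1e-05, the smallest the resamples can give, and 0.00011; adjusted 0.000195 and 0.00214). For Manf r was 0.90 and rho 0.86 over 20 livers (permutation p = 2e-05 and 1e-05, adjusted 0.00026 and 0.00039). For Syvn1 r was 0.85 and rho 0.77 (permutation p = 1e-05 and 0.00021, adjusted 0.000195 and 0.00273). Sel1l came next at r = 0.72 and rho = 0.71 (permutation p = 0.0007 and 0.0014, adjusted 0.00655 and 0.0136).

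These 4 also held by rank, whereas the adjusted p of rho was 0.0595 or above for the other 7. Without the 2 livers farthest from the median of Hspa5, HF-Q replicates 1 and 5, r was 0.84 for Creld2, 0.85 for Manf, 0.73 for Syvn1 and 0.52 for Sel1l. With slide means also removed it was 0.89, 0.90, 0.83 and 0.67. Ero1lb fell from 0.65 to 0.31 when the 2 livers were left out.

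Other members had an r with Hspa5 near or below 0.20, among them some with a low p between diets. Derl3 had r = 0.20 and rho = -0.0078 (permutation p = 0.391 and 0.976, adjusted 0.587 and 0.993). Pdia5 had r = -0.038 and rho = -0.11 (permutation p = 0.872 and 0.62, adjusted 0.944 and 0.78). Xbp1 had r = -0.053 and rho = -0.20 (permutation p = 0.816 and 0.37, adjusted 0.909 and 0.553), and Herpud1, with r = -0.17, was the lowest. With arrays centred on their median these values were 0.36, 0.57, 0.41 and 0.40.

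**Figure D5:**
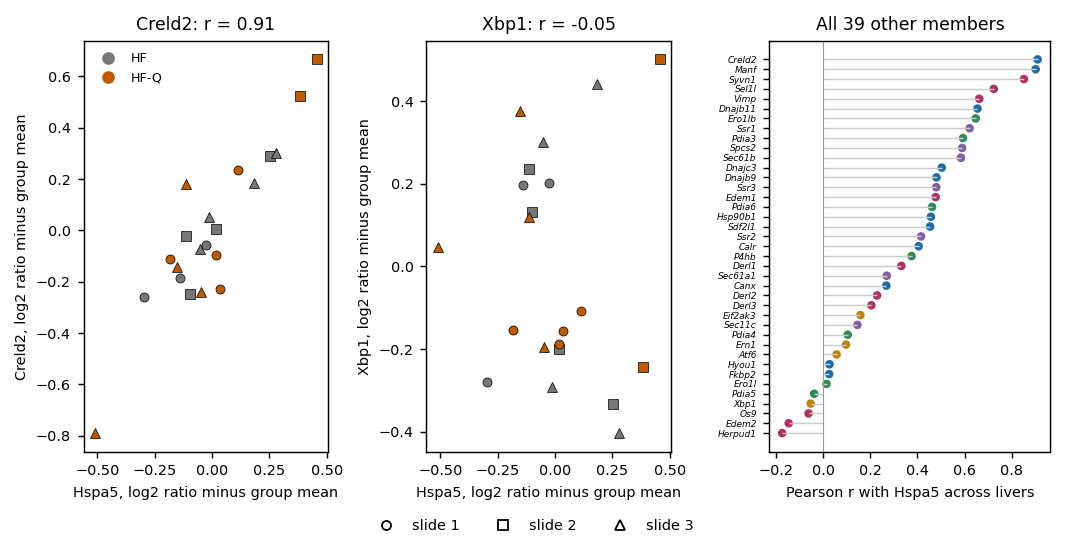
Log2 ratios after removal of each diet group's mean: Creld2 (left) and Xbp1 (middle) against Hspa5 in 21 livers, coloured by diet, and Pearson's r with Hspa5 for the 39 other members (right; blue chaperones, green disulfide enzymes, red degradation, purple translocation, gold sensors). Creld2 lies along a line (r = 0.91), Xbp1 does not (r = -0.05), and r runs from -0.17 for Herpud1 to 0.91 for Creld2.

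Further ER genes were read from lists. Of 124 genes in 7 lists of ER functions that hold none of the 40 members, 73 were higher in HF-Q, 12 of them at an unadjusted p under 0.05, and 3 were lower at that threshold (3.01% and 2.94% of all genes), with a median of 0.016. None passed the adjusted threshold in limma. When arrays were centred on their median, 100 of the 124 were higher, as were 65.6% of all genes.

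Translocation had 15 of 18 genes higher, 4 of them at an unadjusted p under 0.05, among them the channel subunit Sec61g (0.17 ± 0.065, SE), the channel partner Tram1 (0.12 ± 0.048) and Ssr4 (0.14 ± 0.055), a sister subunit of Ssr2. In N-glycosylation 12 of 19 were higher, with the oligosaccharyltransferase subunits Ostc (0.16 ± 0.071), Rpn1 (0.12 ± 0.054) and Stt3a (0.10 ± 0.048) at that threshold. In folding 14 of 23 were higher, with the peroxiredoxin Prdx4 at 0.14 ± 0.046 and Selt, a selenoprotein, lower at -0.072 ± 0.031. In degradation 12 of 20 were higher, with Selk, a partner of Vimp, at 0.12 ± 0.039 and Ubxn4, a p97 adaptor, at 0.20 ± 0.085.

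In the other 3 lists the share of higher genes was near the 46.9% of all genes. Transport between ER and Golgi had 10 of 22 genes higher and 1 lower at an unadjusted p under 0.05, the retrieval receptor Kdelr3 (-0.15 ± 0.050, SE). The PERK and ATF4 arm had 6 of 13 higher, with asparagine synthetase Asns at 0.60 ± 0.27 and the antioxidant regulator Nfe2l2 at -0.13 ± 0.056. Of the ER-bound transcription factors and proteases, 4 of 9 were higher, with Wfs1, a negative regulator of ATF6, at 0.14 ± 0.066.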

How the data were processed

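RNA of 21 livers was measured on 2-colour Agilent arrays. The authors left out the arrays of 3 of 24 mice, per the labels. They deposited each array's scanner output, made with Agilent Feature Extraction 10.7.3.1 per the submitters' processing notes, whose mean and background intensity columns are not normalised, per the file headers. They also deposited a table of log2 values, of unstated scaling, with a median of 7.92 in every column. It follows the log2 Cy5 signal of the same array (r = 0.985 to 0.999), and the log2 Cy3 signal nearly as closely (r = 0.980 to 0.992).

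In limma 3.58.1 under R 4.3.3, background was corrected by normexp (offset 50), which draws dim ratios toward 0, and ratios by loess. Control and outlier-marked spots were left out. A probe needed a Cy5 signal well above background on at least 10 arrays, and the brightest stood for a gene. Names were updated through RefSeq for 27235 probes. Between 44.2% and 51.3% of probes were above background in Cy5, and the number of arrays limits precision. The groups were compared with limma's moderated test, two-sided and Benjamini-Hochberg adjusted over 19716 genes. The labels do not say whether replicates share a cage or litter. Correlations used numpy 2.4.6. The fit was tested on simulated data.

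The members, lists and rules were chosen with earlier results of these data known. Every member is given by role, with liver values for Hspa5, Hsp90b1, Xbp1, Atf6, Ern1, Eif2ak3 and the 12 members of lowest p, and up to 3 genes of lowest p per other ER list. Alternatives changed background, normalisation, filter, probe choice, variance model, blocks, slides and arrays. Marker lists of endothelial, stellate and bile duct cells averaged -0.12 to 0.12, -0.21 to 0.13 and -0.23 to 0.35 over all livers.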

Additional observations from a re-analysis of the deposited data

Results flagged for a closer look

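In HF-Q, 5 of the 40 members had 1 liver set apart from the rest by a gap that is wide against the group's range, where chance gives about 1 group in 20; the HF group, with 11 livers, is above the size to which this check applies. Sec61a1 stood at -1.21 in replicate 7, on a spot with both channels raised, and the next liver was at -0.28. Dnajb11 and Pdia6 stood at -0.29 and -0.35 in replicate 4, the liver that was lowest in 18 members, with Pdia6 measured in 7 livers. In replicate 10, Dnajb9 was highest at 0.56, with the next liver at 0.089, and Os9 was lowest at -0.43, with the next at -0.16.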

How the results depend on the processing

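No member passed the adjusted threshold under any alternative run. Over all genes 1 was called with array weights, 1 within slide 2 and 0 to 4 when single arrays were left out (4 without HF replicate 2, 1 without HF-Q replicate 10), none of them a member. The count of members at an unadjusted p under 0.05 was 9 to 17 when single arrays were left out (17 without HF-Q replicate 4). The share of all genes was not set beside these counts, so they cannot be read as particular to the members. The count was 7 with median centring, 1 within slide 3 and 4 there without HF-Q replicate 4, all higher in HF-Q. Of all genes, 0.852%, 1.99% and 2.07% were higher at that threshold. The median difference over the members was 0.073 to 0.12 without single arrays, 0.17 within slide 2 and -0.0050 within slide 3. Members correlated with Hspa5 at an adjusted p under 0.05 numbered 6 within HF, 2 within HF-Q and 31 with median centring. Among the 17 members given with liver values, directions turned within slide 3 for Hspa5 (-0.084), Manf (-0.070) and Dnajb11 (-0.0097), there without HF-Q replicate 4 for Ern1 (0.00029), and within slide 1 for Xbp1 (-0.10). Atf6 and Eif2ak3 turned with Cy5 alone (-0.035 and -0.0029), within slide 2 (-0.038 and -0.079) and without HF replicate 8 (-0.064 and -0.10). Over all 40, 14 members turned within slide 3, 13 of them to lower in HF-Q (Syvn1, Calr, Pdia3 and Dnajc3 among them), 9 within slide 2, 7 within slide 1 and 3 without HF-Q replicates 1 and 5 (Dnajc3, Sel1l and Ssr3). Leaving out 1 array turned Canx, Dnajb9, Fkbp2, Derl2, Os9, Sec61a1, Ssr3, Atf6 or Eif2ak3. The cause was not tested, beyond the fewer arrays in these fits. With the replicate number as a block, 11 members were higher at an unadjusted p under 0.05 (2.78% of all genes) and the median was 0.086. Livers of the same number showed no shared deviation (correlations -0.34 to 0.16, 1 pair over 0.1). These values cannot show whether the number marks a shared cage or litter, since a pairing need not show in expression. Leaving out HF replicates 5 and 11, HF-Q replicates 1 and 5, or HF-Q replicate 4 within slide 3 was chosen after seeing the data. Dim members such as Ero1l and Hyou1, nearest to background, have ratios drawn toward 0. Derl3, with a median Cy5 intensity of 324, differed by 0.65 with a normexp offset of 10 and by 0.75 with the scanner's processed signals.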
